A study of Mus musculus with 12 samples.

Results

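Collagen chain genes encode the alpha chains that assemble into the collagen trimers of the extracellular matrix. They were taken as every gene whose symbol is Col, a type number, the letter a and a chain number. The rule found 44 genes among the 24011 genes measured on 12 arrays of mouse liver sinusoidal endothelial cells (LSEC), the fenestrated endothelium of the liver capillaries. The arrays compared LSEC that lack Stab1, Stab2 or both, the genes of the scavenger receptors stabilin-1 and stabilin-2, with wild-type LSEC.

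In the liver, fibrillar collagens such as types I, III and V are made mainly by hepatic stellate cells and portal fibroblasts, whereas endothelial cells make type IV chains of the basement membrane. Collagen chains are hydroxylated and folded in the endoplasmic reticulum, assembled by defined partners, processed outside the cell and crosslinked by lysyl oxidases. LSEC also clear circulating collagen fragments by endocytosis through the mannose receptor, and stabilins take up other matrix and modified ligands.

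The 4 genotypes were wild type (WT), Stab1KO, Stab2KO and the Stab1/2 knockout (DKO), all on C57BL/6J and aged 3 to 4 months, with 3 arrays each. Each array measured RNA of CD146 bead-isolated cells pooled from 3 mice, and the labels call each pool a biological replicate. The cells' purity was checked by flow cytometry per the labels, and how the alleles were made is not given in the sources used here. Values are normalized log2 intensities, on which a difference of 1 is a change of a factor of 2. A gene was called changed at an adjusted p under 0.05 (limma on all 24011 genes, Benjamini-Hochberg), and the small number of arrays limits the precision.

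Stab1 had a mean log2 intensity of 12.54 ± 0.08 (SD, n = 3) in the WT arrays and 12.53 ± 0.06 in the Stab2KO arrays. It was 5.31 ± 0.14 where Stab1 alone was deleted and 5.23 ± 0.23 in DKO. Stab2 was at 13.05 ± 0.05 in the WT arrays and 13.00 ± 0.02 in the Stab1KO arrays. It was 6.81 ± 0.57 where Stab2 alone was deleted and 6.65 ± 1.09 in DKO. The arrays therefore matched their labels. The mean of 15 LSEC genes other than Stab1 and Stab2 was 12.46 to 12.54 in the 9 arrays of the other genotypes and 12.19 to 12.43 in DKO. DKO replicate 3 stood apart, with correlations of 0.956 to 0.968 with the other arrays, which correlated at 0.987 or more among themselves. Its mean over 12 neutrophil genes was 11.38, against 5.08 to 6.23 in the other 11 arrays.

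Of the 44 collagen chain genes, 7 were called in at least 1 of the 7 comparisons made, which is 15.9% of them beside 4.4% of all genes. In Stab1KO against WT, 2 chains (4.55%) were called, both lower, while 0.308% of all genes were called and 0.279% were called lower. In Stab2KO the same 2 chains, Col14a1 and Col6a1, fell, while 0.296% of all genes were called and 0.212% were called lower. In DKO, 7 chains were called, while 1.8% of all genes were. Of them 6 fell, beside 1.05% of all genes, and 1 rose, beside 0.754%. The 6 that fell were Col14a1, Col6a1, Col1a2, Col13a1, Col4a3 and Col6a2, and the chain that rose was Col8a1. The median change over all 44 chains was -0.02 in Stab1KO, -0.01 in Stab2KO and -0.10 in DKO, beside medians of 0.01, 0.01 and -0.02 over all genes. Of the 44 chains, 34 were below their WT mean in DKO, 24 in Stab2KO and 26 in Stab1KO. The share of all genes below their WT mean is not given here, so these counts are not read as particular to collagen chains.

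Counted by whether the arrays overlapped, 6 chains had all 3 Stab1KO arrays below all 3 WT arrays, beside 4.72% of all genes, and 1 had all above, beside 5.36%. In Stab2KO 9 chains lay wholly below WT and 2 wholly above, beside 7.63% and 8.09% of all genes. In DKO 12 lay wholly below and 4 wholly above, beside 15% and 8.97%. The mean of 22 of the 44 lay below the median of all values in the table. The 3 comparisons with WT share the same WT arrays.

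**Figure D1:**
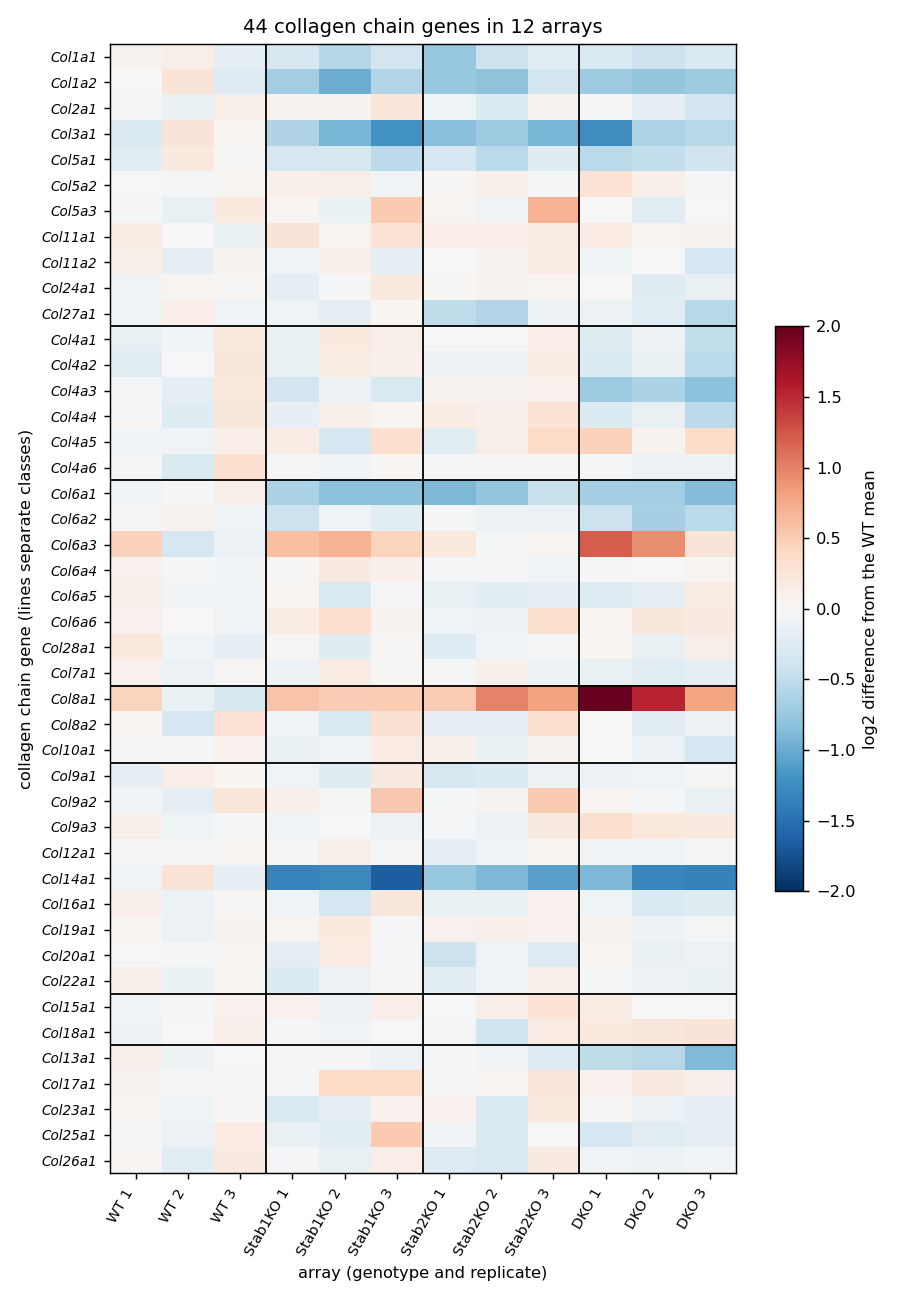
Heat map of the log2 difference from the WT mean for all 44 collagen chain genes (vertical axis, by class) in the 12 arrays (horizontal axis, by genotype and replicate). Col14a1, Col6a1, Col1a2 and Col3a1 are lower in all 9 knockout arrays, and Col8a1 is higher.

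A first group of chains had lower values in all 3 knockouts. Col14a1, Col6a1, Col1a1, Col1a2, Col3a1 and Col5a1 had all 3 arrays of each knockout below all 3 WT arrays. These are 6 of 44 chains, beside 0.829% of all genes with that order. All 3 knockouts are set against the same WT arrays here, so a high WT group enters each.

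Col14a1, a fibril-associated collagen that coats the surface of fibrils, showed the greatest changes of any chain in Stab1KO, Stab2KO and, among the chains that fell, in DKO. Its log2 intensity was 8.20, 8.55 and 8.13 in the WT arrays. It was 6.96, 7.003 and 6.65 in Stab1KO, 7.53, 7.40 and 7.20 in Stab2KO, and 7.39, 6.99 and 6.94 in DKO. No knockout array reached the lowest WT array. Col14a1 fell by 1.43 ± 0.16 (SE) in Stab1KO (2.69-fold lower, limma adjusted p = 0.0026), by 0.92 ± 0.16 in Stab2KO (1.89-fold, adjusted p = 0.046) and by 1.19 ± 0.16 in DKO (2.28-fold, adjusted p = 0.0053). The Stab1KO arrays were all below the Stab2KO arrays, with a difference of -0.51 that did not pass the test (adjusted p = 0.50). The calls in Stab1KO and DKO held with each of the 12 arrays left out, but that in DKO was lost in a fit on only the WT and DKO arrays (adjusted p = 0.059). The call in Stab2KO held only without DKO replicate 1 or DKO replicate 3, and without any other single array its adjusted p was 0.054 to 0.23.

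Col6a1 encodes the alpha 1 chain of type VI collagen, which forms beaded filaments next to cells. Its log2 intensity was 7.20, 7.28 and 7.40 in WT, 6.66, 6.47 and 6.48 in Stab1KO, 6.39, 6.50 and 6.84 in Stab2KO, and 6.63, 6.59 and 6.43 in DKO. The 3 knockouts overlapped one another and lay below WT. Col6a1 fell by 0.76 ± 0.12 in Stab1KO (adjusted p = 0.022), by 0.71 ± 0.12 in Stab2KO (adjusted p = 0.037) and by 0.74 ± 0.12 in DKO (adjusted p = 0.013), each about the same 1.64- to 1.69-fold. DKO and Stab1KO differed by 0.01, with a 95% confidence interval of -0.25 to 0.27. Its call was lost without WT replicate 2 or 3 in DKO (adjusted p = 0.059 and 0.065), without any WT array or Stab1KO replicate 2 or 3 in Stab1KO (0.054 to 0.14), and in Stab2KO without any array but Stab2KO replicate 3 and DKO replicate 3 (0.057 to 0.18). Col6a1, Col6a2, Col10a1, Col13a1 and Col18a1 lie on chromosome 10, as Stab2 does, so a segment linked to the Stab2 allele and the loss of Stab2 cannot be told apart in Stab2KO and DKO. Against WT, Col6a1 was called lower in all 3 knockouts, and Col13a1 and Col6a2 were called lower in DKO alone. Col10a1 and Col18a1 were called in no comparison. The part of a linked segment in these differences was not tested.

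Type I and type III collagen form the main fibrils of connective tissue, and type V sets fibril diameter. Col1a2 was at 6.80, 7.07 and 6.56 in WT, 6.11, 5.81 and 6.22 in Stab1KO, 6.05, 6.01 and 6.45 in Stab2KO, and 6.08, 6.04 and 6.10 in DKO. Its DKO arrays lay close together, and every knockout array was below every WT array. Col1a2 fell by 0.74 ± 0.16 in DKO (1.67-fold, adjusted p = 0.044). Its differences of -0.76 in Stab1KO (adjusted p = 0.15) and -0.64 in Stab2KO (adjusted p = 0.22) did not pass. The DKO call held only without Stab1KO replicate 2 or Stab2KO replicate 3, and without any other array the adjusted p was 0.055 to 0.17.

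The other fibrillar chains with this order did not pass the test in any knockout. Col3a1 was at 7.10, 7.64 and 7.43 in WT and at 6.78, 6.47 and 6.18 in Stab1KO, 6.55, 6.66 and 6.47 in Stab2KO and 6.15, 6.77 and 6.83 in DKO. Its differences from WT were -0.91 ± 0.21, -0.83 and -0.80 (adjusted p = 0.25, 0.24 and 0.081). Col1a1, the partner of Col1a2 in type I collagen, was at 6.76, 6.82 and 6.50 in WT and between 5.94 and 6.47 in the knockouts, with differences of -0.42, -0.47 and -0.34 (adjusted p = 0.93, 0.36 and 0.24). Both type I chains were therefore below WT in all 9 knockout arrays. Over all 12 arrays, WT included, the deviations from the WT means differed between the 2 chains by a median of 0.29. Col5a1 had differences of -0.39, -0.37 and -0.48 (adjusted p = 0.77, 0.41 and 0.067). Without WT replicate 1, Col5a1 passed in DKO, at -0.59 (adjusted p = 0.049). Col5a2, its partner in type V collagen and the neighbour of Col3a1 on the chromosome, had its lowest array at 6.66 and its highest at 7.003 in all 12 arrays.

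**Figure D2:**
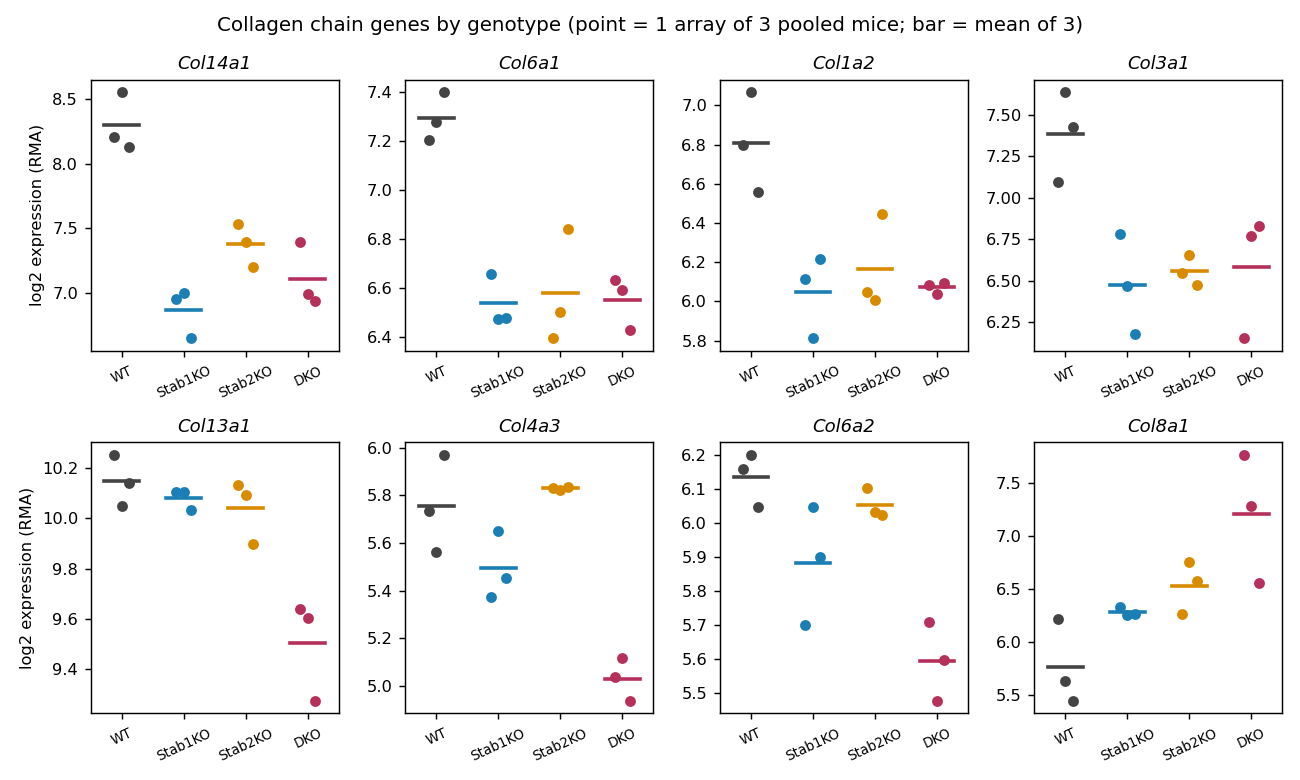
Log2 intensity (vertical axis) of 8 collagen chain genes in each array, as points by genotype (horizontal axis), with a bar at each genotype mean (n = 3). Col14a1, Col6a1, Col1a2 and Col3a1 have no knockout array as high as the lowest WT array. By genotype mean, Col13a1, Col4a3 and Col6a2 are lowest in DKO, and Col8a1 is highest there.

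Stellate cell genes moved in the same direction in the same arrays. The mean of 19 stellate cell genes that are not collagens was 8.02 to 8.54 in WT, 6.48 to 6.70 in Stab1KO, 6.95 to 7.08 in Stab2KO and 6.37 to 6.64 in DKO. Of the 19, 12 fell in Stab1KO, 12 in Stab2KO and 13 in DKO, and none rose. In DKO, Lrat, the retinol esterification enzyme, fell by 3.68 ± 0.26 (adjusted p = 6.8e-05), and Reln, a secreted glycoprotein of stellate cells, fell by 2.81 ± 0.32 (adjusted p = 0.0021). Dcn, which encodes the collagen-binding proteoglycan decorin, fell by 2.35 ± 0.20 (adjusted p = 0.00021). In these bulk samples fewer stellate cells and less RNA per stellate cell cannot be told apart, and the part of the stellate genes in the collagen differences was not tested.

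**Figure D3:**
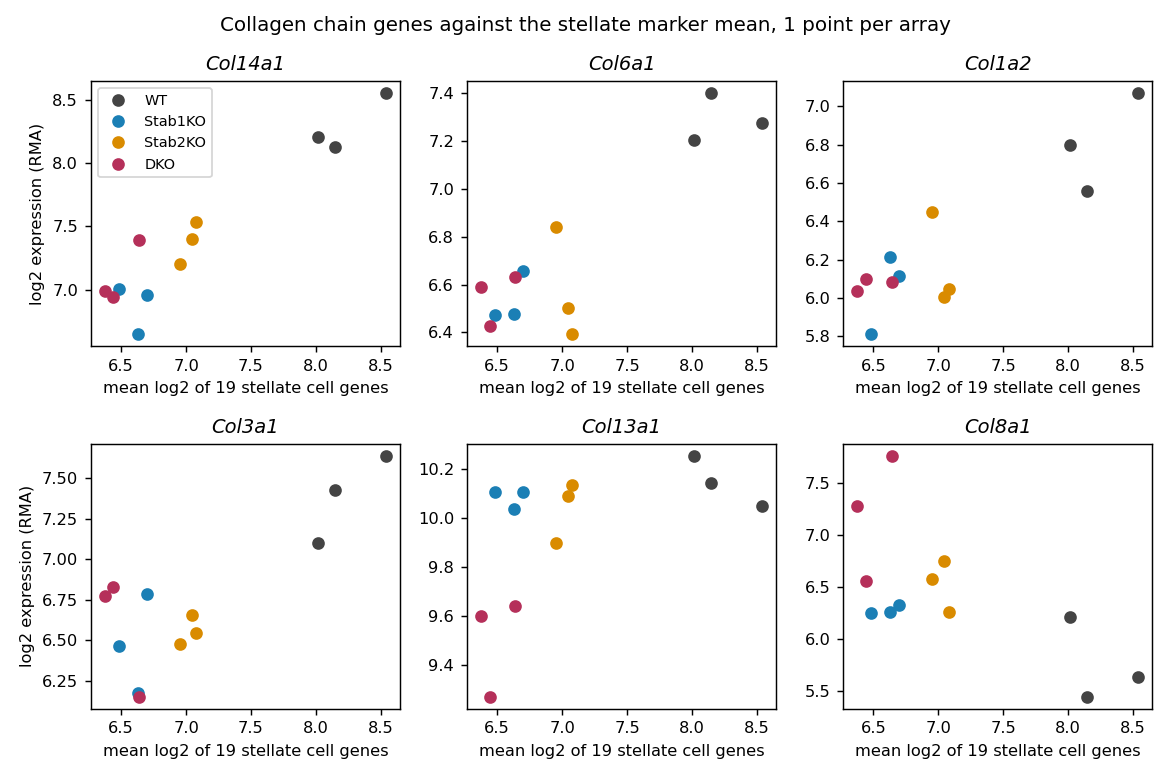
Log2 intensity of 6 collagen chain genes (vertical axis) against the mean log2 intensity of 19 stellate cell genes (horizontal axis), 1 point per array, coloured by genotype. The WT arrays lie at 8.02 to 8.54 on the horizontal axis and the knockout arrays at 6.37 to 7.08, with no array between.

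The sequence upstream of the gene start is shown for the chains called in a knockout that have a window in the RefSeq promoter table (GRCm38.p6), on the gene's strand, 5′ to 3′. The 250 bases before the start were searched on both strands for the TATA box (TATAAA), the CCAAT box (CCAAT), the GC box (GGGCGG), the AP-1 motif (TGANTCA) and the GATA motif (AGATAA), none of which overlapped another match in the windows shown. Capitals mark each match, which describes the letters and not a bound site. Col6a1 (chr10:76726045-76726294, minus strand) and Col1a2 (chr6:4505368-4505617, plus strand) are the called chains with a window among those lower in all 3 knockouts.
Col6a1: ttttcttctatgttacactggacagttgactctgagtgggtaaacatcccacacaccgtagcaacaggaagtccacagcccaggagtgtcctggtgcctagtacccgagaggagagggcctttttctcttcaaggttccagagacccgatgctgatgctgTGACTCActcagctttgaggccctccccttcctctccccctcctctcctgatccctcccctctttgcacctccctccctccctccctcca
Col1a2: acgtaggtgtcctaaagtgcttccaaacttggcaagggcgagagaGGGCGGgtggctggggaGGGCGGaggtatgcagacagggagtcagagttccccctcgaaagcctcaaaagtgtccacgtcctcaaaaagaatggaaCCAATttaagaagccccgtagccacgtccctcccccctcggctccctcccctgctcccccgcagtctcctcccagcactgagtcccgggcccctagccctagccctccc
Col6a1 holds an AP-1 match 90 bases before its start. Of the 38 windows of the 35 chains with an entry, 2.63% hold this motif, beside 6.75% of all 32851 windows. Col1a2 holds a CCAAT match 109 bases before its start and GC boxes at 205 and 188. CCAAT was in 34.2% of the collagen windows and 33.8% of all windows, and the GC box in 57.9% and 32.7%.

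Col13a1, Col4a3 and Col6a2 fell in DKO against WT and against Stab2KO, and were called in neither single knockout. In DKO against Stab1KO, 1 chain fell, Col13a1, while 0.945% of all genes were called and 0.4% were called lower. In DKO against Stab2KO, 3 chains fell, while 3.42% of all genes were called and 2.12% were called lower.

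Col13a1, a transmembrane collagen that sits in the cell membrane at adhesion sites, had high values on every array. It was at 10.25, 10.05 and 10.14 in WT, 10.11, 10.11 and 10.04 in Stab1KO, 10.13, 10.09 and 9.90 in Stab2KO, and 9.64, 9.60 and 9.27 in DKO. The DKO arrays were below all 9 others. Col13a1 fell by 0.64 ± 0.11 against WT (1.56-fold, adjusted p = 0.018), by 0.58 against Stab1KO (adjusted p = 0.037) and by 0.54 against Stab2KO (adjusted p = 0.030). Its difference from WT was -0.07 in Stab1KO (95% confidence interval -0.30 to 0.17) and -0.11 in Stab2KO (-0.35 to 0.13). Without DKO replicate 3, the array with the highest neutrophil mean, the difference of Col13a1 from WT was -0.53 (adjusted p = 0.022). The call against WT was lost without WT replicate 1 or 3 (adjusted p = 0.061 and 0.065). That against Stab1KO held only without Stab2KO replicate 3 or DKO replicate 3 (otherwise 0.051 to 0.14), and that against Stab2KO was lost without WT replicate 3 or Stab2KO replicate 1 or 2 (0.050 to 0.11).

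Col4a3, which with Col4a4 and Col4a5 builds a type IV network found in specialised basement membranes, was at 5.74, 5.56 and 5.97 in WT, 5.37, 5.65 and 5.45 in Stab1KO, 5.83, 5.82 and 5.84 in Stab2KO, and 5.04, 5.12 and 4.94 in DKO. The DKO arrays were below all others. They lay near or below 5.12, the median of all values, so the fall reaches into low signal. Col4a3 fell by 0.73 ± 0.11 in DKO against WT (1.65-fold, adjusted p = 0.010) and by 0.80 against Stab2KO (adjusted p = 0.010). Its difference from Stab1KO was -0.46 (adjusted p = 0.078). The call against WT held with each array left out but was lost in a fit on only the WT and DKO arrays (adjusted p = 0.081), and that against Stab2KO was lost without Stab2KO replicate 2 (adjusted p = 0.052). Col4a4, its head-to-head neighbour, was at 5.09, 4.82 and 5.29 in WT and 4.80, 4.92 and 4.54 in DKO, a difference of -0.32 ± 0.13 (adjusted p = 0.27). Col4a5, the chain that joins them, was 0.30 ± 0.19 above WT in DKO (adjusted p = 0.46).

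The main basement membrane chains Col4a1 and Col4a2, which share 1 promoter region and assemble together, did not pass the test in any comparison. Col4a1 was at 10.13, 10.23 and 10.50 in WT and 10.05, 10.18 and 9.79 in DKO, and Col4a2 was at 9.98, 10.18 and 10.42 in WT and 9.92, 10.04 and 9.65 in DKO. Their differences from WT in DKO were -0.28 ± 0.13 and -0.32 ± 0.14 (adjusted p = 0.31 and 0.27), and DKO replicate 3 was the lowest array for both. Without it the differences were -0.17 and -0.21. Within each array, the deviations of Col4a1 and Col4a2 from their WT means differed by at most 0.11, with a median of 0.04. For Col4a3 and Col4a4 the same gap reached 0.49, with a median of 0.20. Over all 6 type IV chains the median difference from WT was 0.01 in Stab1KO, 0.06 in Stab2KO and -0.30 in DKO, with 1 chain called.

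Col6a2, the alpha 2 chain of type VI collagen, was at 6.16, 6.20 and 6.05 in WT, 5.70, 6.05 and 5.90 in Stab1KO, 6.10, 6.03 and 6.02 in Stab2KO, and 5.71, 5.48 and 5.60 in DKO. DKO overlapped Stab1KO and lay below WT and Stab2KO. Col6a2 fell by 0.54 ± 0.10 in DKO against WT (1.46-fold, adjusted p = 0.024) and by 0.46 against Stab2KO (adjusted p = 0.036). The call against WT was lost without any 1 WT array or DKO replicate 2 (0.060 to 0.11), and that against Stab2KO without any array but Stab1KO replicate 1 or 2 (0.051 to 0.12). Col6a1 and Col6a2 belong to the same trimer, and their deviations from WT differed by up to 0.87, in Stab2KO replicate 1, where Col6a1 was low and Col6a2 was not. Col6a3, the largest chain of that trimer, was at 7.32, 6.53 and 6.74 in WT, 7.46, 7.55 and 7.30 in Stab1KO, 7.08, 6.84 and 6.91 in Stab2KO, and 8.08, 7.79 and 7.12 in DKO. The DKO and WT arrays overlapped, and the difference of 0.80 ± 0.24 did not pass (adjusted p = 0.13), but without DKO replicate 3 it was 1.07 and passed (adjusted p = 0.028). Col6a4, Col6a5 and Col6a6, the other partners of Col6a1 and Col6a2, differed from WT in DKO by 0.00, -0.09 and 0.15.

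The upstream sequences of Col13a1 (chr10:61979207-61979358, minus strand) and Col6a2 (chr10:76623631-76623880, minus strand) are shown as chains called lower in DKO but in neither single knockout. For Col13a1 the 98 bases nearest the start are left out, because an annotated gene span reaches into them.
Col13a1: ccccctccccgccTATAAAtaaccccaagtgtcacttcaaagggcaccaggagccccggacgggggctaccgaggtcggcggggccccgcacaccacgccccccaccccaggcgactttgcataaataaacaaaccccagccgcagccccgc
Col6a2: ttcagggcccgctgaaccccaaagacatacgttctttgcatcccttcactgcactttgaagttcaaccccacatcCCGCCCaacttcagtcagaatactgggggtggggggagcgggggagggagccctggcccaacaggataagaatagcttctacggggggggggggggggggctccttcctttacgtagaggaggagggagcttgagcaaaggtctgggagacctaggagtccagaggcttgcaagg
Col13a1 holds a TATAAA match 237 bases before the start given in the promoter table, with the bases left out counted. This motif was in 13.2% of the collagen windows and 12.4% of all windows. Col6a2 holds a GC box 175 bases before its start. Neither window holds an AP-1 or GATA match in the printed bases, and GATA was in 5.26% of the collagen windows and 9.99% of all windows.

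Col8a1 was the collagen chain that rose. It encodes the alpha 1 chain of type VIII collagen, a short-chain collagen of vascular matrix that forms hexagonal networks. Col8a1 was at 6.22, 5.63 and 5.45 in WT, 6.33, 6.25 and 6.27 in Stab1KO, 6.27, 6.75 and 6.57 in Stab2KO, and 7.76, 7.28 and 6.56 in DKO. All 9 knockout arrays were above all 3 WT arrays, which holds for 0.429% of all genes and for no other collagen chain. Col8a1 rose by 1.44 ± 0.28 in DKO (2.71-fold, adjusted p = 0.031). The differences of 0.52 in Stab1KO and 0.77 in Stab2KO did not pass (adjusted p = 1 and 0.51), nor did those of DKO from Stab1KO, 0.92 (adjusted p = 0.14), and from Stab2KO, 0.67 (adjusted p = 0.22). DKO replicate 3 was the lowest DKO array, and without it the difference from WT was 1.76 (adjusted p = 0.0048). The gene no longer passed after leaving out WT replicate 2 or 3, Stab1KO replicate 3, or DKO replicate 1 or 2 (adjusted p = 0.052 to 0.13). Col8a2, the partner chain, stayed between 4.49 and 5.14.

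Some lists of other cell types also had higher values in DKO, and others did not. The mean of 10 portal fibroblast genes was 5.70 to 5.94 in WT and 5.84 to 6.02 in Stab1KO. It was 6.06 to 6.10 in Stab2KO, also wholly above WT, and 6.26 to 6.62 in DKO. In DKO 3 of them rose by limma: Cd34 (0.93 ± 0.13, adjusted p = 0.0057), Dpt (0.64 ± 0.12, adjusted p = 0.029) and Fbln2, a matrix glycoprotein gene (1.40 ± 0.27, adjusted p = 0.033). The others were not called, and of them only Clec3b was below WT (-0.22). The mean of Cd34 was 8.63 in WT and 9.56 in DKO. Whether fibroblasts or the LSEC themselves gave the Cd34 signal, which is part of the list mean, was not tested. The mean of 6 cholangiocyte genes was 5.80 to 6.36 in WT and 6.99 to 7.49 in DKO, and 4 rose, among them the keratin gene Krt19 (1.23 ± 0.25, adjusted p = 0.036). The mean of 6 smooth muscle genes was 5.31 to 5.44 in WT, 5.46 to 6.41 in Stab2KO and 5.67 to 6.28 in DKO, with none called, and Acta2, the smooth muscle actin gene, was 2.02 ± 0.56 above WT (adjusted p = 0.10). The mean of 10 Kupffer cell genes was 7.51 to 9.65 in WT, 8.24 to 9.23 in Stab1KO, 7.17 to 7.58 in Stab2KO and 7.98 to 9.22 in DKO, and that of 7 hepatocyte genes was 8.48 to 9.35 in WT and 8.54 to 9.50 in DKO, with none called in either list. The part of these genes in the Col8a1 difference was not tested.

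The window of Col8a1 (chr16:57754738-57754987, minus strand) is shown because Col8a1 was the chain called higher.
Col8a1: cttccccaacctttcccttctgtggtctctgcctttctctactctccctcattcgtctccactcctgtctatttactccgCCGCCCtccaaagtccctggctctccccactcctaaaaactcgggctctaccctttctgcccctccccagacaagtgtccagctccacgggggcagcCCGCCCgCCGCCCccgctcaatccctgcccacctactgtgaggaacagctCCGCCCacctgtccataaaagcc
It holds 4 GC boxes, 170, 73, 66 and 23 bases before the start.

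**Figure D4:**
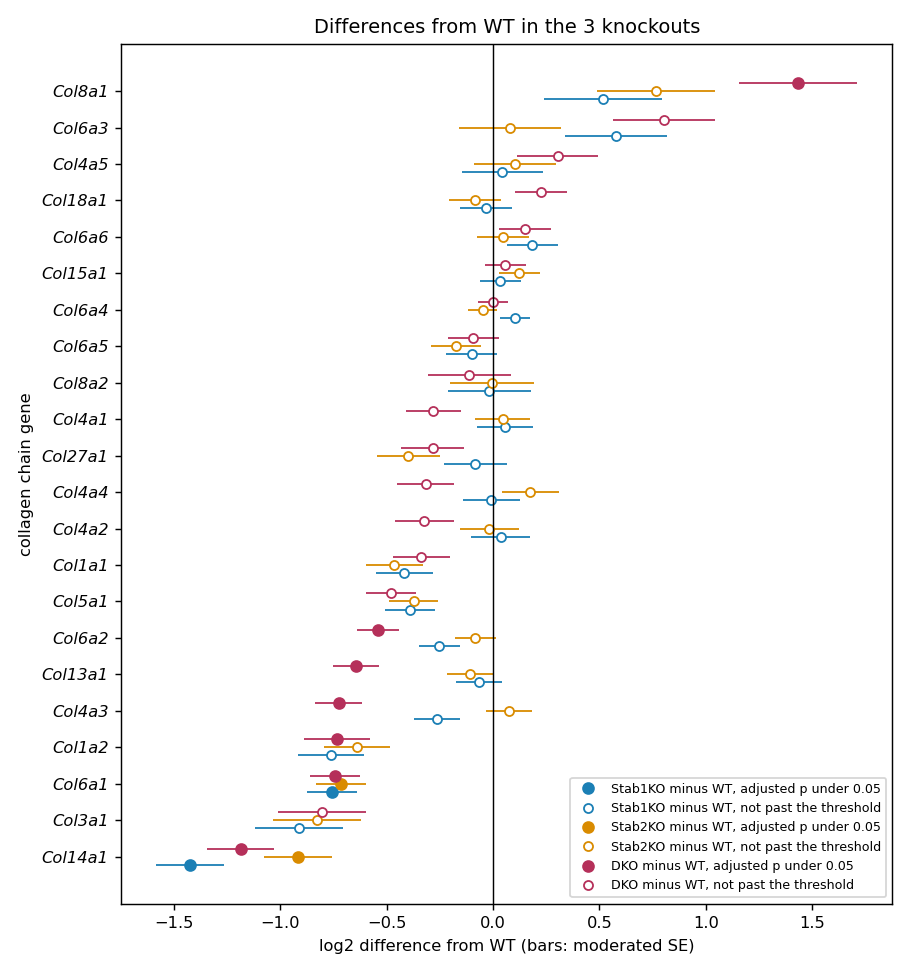
Log2 difference from WT (horizontal axis, ± SE from limma) of 22 collagen chain genes (vertical axis) in Stab1KO, Stab2KO and DKO. Filled points passed the test at an adjusted p under 0.05, and Col14a1 and Col6a1 are filled in all 3 knockouts.

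The chains called in DKO came from 6 of the 7 classes of collagen, most of them with 1 called chain. Of all genes, 1.05% were called lower in DKO against WT and 0.754% were called higher. Here 1 of 11 fibrillar chains, 1 of 6 type IV chains, 2 of 8 type VI and related chains, 1 of 9 fibril-associated chains and 1 of 5 transmembrane and other chains fell, and 1 of 3 hexagonal network chains rose. Neither multiplexin, a class of basement membrane collagens that carry sugar chains, was called. Col15a1 stayed between 4.56 and 4.95. Col18a1, the precursor of endostatin, was at 5.12, 5.21 and 5.32 in WT and 5.41, 5.44 and 5.47 in DKO, a difference of 0.22 ± 0.12 (adjusted p = 0.39). Col27a1, a fibrillar chain of cartilage, was at 7.68, 7.89 and 7.69 in WT and 7.25, 7.16 and 7.65 in Stab2KO, a difference of -0.40 ± 0.15 (adjusted p = 0.52). The class medians in DKO were -0.19 for fibrillar, -0.05 for type VI and related, -0.11 for hexagonal network, -0.06 for fibril-associated, 0.14 for multiplexin and -0.10 for transmembrane and other chains.

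Between Stab1KO and Stab2KO, 0 of the 44 chains were called by limma, while 0.108% of all genes were. An unadjusted p under 0.05 was found for 2 chains (4.55%), beside 7.07% of all genes. Whether DKO differs from the sum of both single changes was tested as a departure from additivity. It was called for 0 of the 44 chains by limma and 0.05% of all genes. An unadjusted p under 0.05 was found for 9 chains (20.5%), beside 12.5% of all genes. For Col14a1 the departure was 1.16 ± 0.22 (adjusted p = 0.094), and for Col6a1 it was 0.73 ± 0.17 (adjusted p = 0.13). For Col13a1 it was -0.47 ± 0.15 (adjusted p = 0.24) and for Col4a3 -0.54 (adjusted p = 0.18). None of the 44 departures passed, so DKO was not shown to differ from the sum for any chain.

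Among the genes that act on collagen, those called against WT included a receptor and a protease in all knockouts and a pair of crosslinking enzymes in DKO. Of 11 collagen receptor and uptake genes, 1 fell in each knockout. This was Ddr2, a receptor tyrosine kinase activated by fibrillar collagen, at 6.58, 6.88 and 6.61 in WT, 5.57, 5.42 and 5.28 in Stab1KO, 5.83, 5.85 and 5.18 in Stab2KO, and 5.26, 5.13 and 4.98 in DKO. No knockout array reached WT. Ddr2 fell by 1.27 ± 0.17 (adjusted p = 0.0089), 1.07 ± 0.17 (adjusted p = 0.034) and 1.57 ± 0.17 (adjusted p = 0.0017). The mannose receptor gene Mrc1 had differences of -0.02, -0.06 and -0.31 (adjusted p = 1, 0.95 and 0.11). Ddr1, the epithelial relative of Ddr2, was higher in DKO than in Stab2KO by 0.95 (adjusted p = 0.032), and its difference from WT was 0.78 (adjusted p = 0.072).

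Of 11 genes of collagen breakdown and its inhibitors, 1 fell in each knockout. This was Mmp2, a gelatinase, at 5.47, 5.65 and 5.52 in WT, 4.60, 4.31 and 4.26 in Stab1KO, 4.75, 4.86 and 4.73 in Stab2KO, and 4.65, 4.56 and 4.96 in DKO. Again no knockout array reached WT. Every knockout value lay below 5.12, the median of all values, so the fall reaches into low signal. Mmp2 fell by 1.16 ± 0.12 (adjusted p = 0.0016), 0.77 ± 0.12 (adjusted p = 0.029) and 0.82 ± 0.12 (adjusted p = 0.0081). The stellate cell means given above were lower in the same arrays. Mmp8 and Mmp9, proteases stored by neutrophils, were at 12.63 and 12.85 in DKO replicate 3, with differences from WT of 3.34 and 2.79 (adjusted p = 0.27 and 0.29).

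Of 13 measured genes of procollagen processing and crosslinking, 1 rose and 1 fell in DKO and none was called in the single knockouts. Lox, the lysyl oxidase that crosslinks fibrils, was at 4.49, 4.17 and 4.18 in WT, 4.34, 4.42 and 4.41 in Stab1KO, 4.47, 4.76 and 4.76 in Stab2KO, and 5.05, 5.03 and 4.95 in DKO. The DKO arrays were above all others. Lox rose by 0.73 ± 0.11 in DKO against WT (adjusted p = 0.0078) and by 0.62 against Stab1KO (adjusted p = 0.029). Every Lox value lay below 5.12, the median of all values, so the rise is within low signal. Loxl3, a relative of Lox, was at 9.29, 9.17 and 9.30 in WT, 9.33, 9.22 and 9.13 in Stab1KO, 9.44, 9.39 and 9.42 in Stab2KO, and 8.91, 8.91 and 8.78 in DKO. Loxl3 fell by 0.39 ± 0.08 against WT (adjusted p = 0.033) and by 0.55 against Stab2KO (adjusted p = 0.010).

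None of 20 measured genes of chain modification and folding was called against WT by limma. Their medians were -0.01 in Stab1KO, 0.03 in Stab2KO and -0.17 in DKO, where 15 of 20 were below WT. The share of all genes below WT in DKO is not given here, so this count is not read as particular to the list. P4ha2, a prolyl hydroxylase subunit that stabilises the trimer, had a difference of -0.95 in DKO (adjusted p = 0.067), and Tmem38b, an endoplasmic reticulum cation channel needed for collagen assembly, one of 1.06 (adjusted p = 0.33). Colgalt1 and Colgalt2, which add galactose to collagen chains, fell in DKO against Stab2KO by 0.43 and 0.71 (adjusted p = 0.049 and 0.041). In that comparison 3.42% of all genes were called and 2.12% were called lower.

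**Figure D5:**
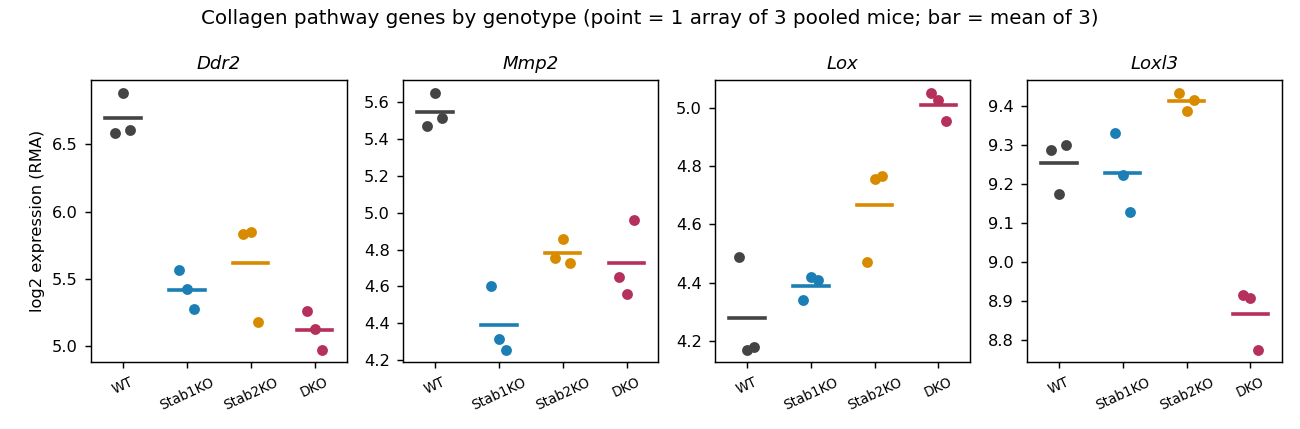
Log2 intensity (vertical axis) of Ddr2, Mmp2, Lox and Loxl3 in each array, as points by genotype (horizontal axis), with a bar at each genotype mean (n = 3). Ddr2 and Mmp2 are lower in all 9 knockout arrays, while Lox is highest and Loxl3 lowest in the DKO arrays.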

How the data were processed

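RNA of 12 pools was measured on 1-colour Affymetrix arrays, biotin-labelled per the labels. The authors deposited normalized log2 values, made with RMA per the submitters' processing notes; no RMA version or probe mapping is stated there or in the labels. RMA subtracts background and makes the arrays' value distributions alike, so a shift shared by most genes would be removed. The lowest value was 2.94 and the highest 13.9.

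Of 24973 deposited table entries, 24015 had 1 symbol, none several and 958 none in the platform annotation. The entry with the highest mean was kept per symbol, which left out 4. No filter on low values was used. All 12 arrays entered 1 limma fit (R 4.3.3, limma 3.58.1; lmFit and eBayes on 4 genotype means), with 7 contrasts and Benjamini-Hochberg adjustment over 24011 genes per contrast, tested on simulated data. An exact permutation test of 3 arrays against 3 cannot go below p = 0.1, the value for Stab1 and Stab2 in their knockouts.

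Named in full were the chains called in a contrast, partners in their trimers, the 6 uncalled chains with the greatest change against WT, Col4a1, Col4a2, Col15a1, Col18a1 and Col13a1. From each pathway list, up to 4 called genes were named, otherwise the 2 with the greatest change. Colgalt1, Colgalt2, Ddr1, Mrc1, Mmp8, Mmp9, Lrat, Reln, Dcn, Fbln2, Cd34, Dpt, Clec3b, Krt19, Acta2 and Col5a2 were added after their values were seen. The members and lists were chosen with earlier results of these data known. Replicate numbers are the labels'. Deviations of same-numbered arrays from their genotype means correlated at -0.06 to 0.29, and 4 of 18 pairs exceeded 0.1. The numbers were not taken to pair arrays. Arrays of different numbers were not compared in this way, so a pairing is not excluded.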

Additional observations from a re-analysis of the deposited data

How the results depend on the processing

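No called difference changed direction under any alternative. The alternatives were each array left out in turn, the replicate number as a block, limma's trend and robust options, a filter on the 40th percentile of gene means, a further quantile normalization, every table entry tested, and fits on only the arrays compared. They were run for the collagen chains and not for the pathway or marker genes. The filter, the quantile normalization and the test of every entry left each count of called chains within 1.5 times its value. With the replicate block 1 chain was called in Stab1KO and 1 in Stab2KO against WT. The labels do not say that the numbers pair the arrays, and a pairing is not excluded. The trend and robust options called 1 chain in Stab2KO against WT. With only the arrays compared, 0 chains were called in Stab2KO against WT, 1 in DKO against WT (Col6a1, with Col14a1, Col1a2, Col13a1, Col4a3, Col6a2 and Col8a1 lost), 0 in DKO against Stab1KO and 0 in DKO against Stab2KO, with fewer arrays to estimate the spread. Leaving out 1 array gave 1 to 2 chains in Stab1KO, 0 to 2 in Stab2KO and 2 to 7 in DKO against WT, the lowest without WT replicate 3. It gave 0 to 2 in DKO against Stab1KO, 0 to 4 in DKO against Stab2KO and 0 to 1 for the departure from additivity, the 1 being without Stab2KO replicate 3. Of 15 called differences, 3 held with each array left out: Col14a1 in Stab1KO and in DKO, and Col4a3 in DKO, all against WT. Of 1254 recomputed values of named chains, 91 lost a call, 2 gained one, and 31 uncalled ones changed sign.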
